A study of Homo sapiens with 24 samples.

Results

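The genes described are 10 that encode the enzymes which hydroxylate and crosslink collagen: the 5 lysyl oxidases LOX, LOXL1, LOXL2, LOXL3 and LOXL4, the 3 lysyl hydroxylases PLOD1, PLOD2 and PLOD3, and P4HA1 and P4HA2, which are 2 catalytic alpha subunits of collagen prolyl 4-hydroxylase. They were chosen by name from the 60668 genes of the deposited tables, and all 10 were found in the table of each of 4 human lung cancer cell lines. RNA was sequenced from 24 cultures in 8 groups of 3, which the series describes as separate biological replicates. The study asked how HEPACAM2, an immunoglobulin-type membrane protein, bears on the contact of lung cancer cells with the matrix. In A549, a lung adenocarcinoma line, and in NCI-H1299 (H1299 below), a non-small cell lung cancer line, cells with the genotype label HEPACAM2 overexpressed (OE) were set against control cells labelled WT. In DMS454 and NCI-H1694 (H1694 below), 2 small cell lung cancer lines, cells titled CRISPR, with the genotype label HEPACAM2 knockdown, were set against cells titled control and labelled WT. The labels do not say which promoter drove the overexpression, whether the CRISPR cells were a clone or a pool, or what the library codes stand for.

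Collagen chains are modified in the endoplasmic reticulum before they fold. Prolyl 4-hydroxylases make the hydroxyproline that holds the triple helix together at body temperature, and lysyl hydroxylases make the hydroxylysine that serves for sugar attachment and for stable crosslinks. Outside the cell, the copper-dependent lysyl oxidases convert lysine and hydroxylysine side chains of collagen, and lysines of elastin, to aldehydes that condense into crosslinks. In lung cancer these enzymes are known for stiffening the matrix around tumour cells, and LOX, PLOD2 and P4HA1 are well-known genes of the hypoxia response.

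The 3 genes whose transcripts changed by at least 1 on the log2 scale in some line were LOX, LOXL1 and LOXL4. Their promoters are shown because the members' responses part most sharply at these genes. The 250 bases before the start that RefSeq gives on GRCh38.p14 lie at chr5:122078260-122078509 on the minus strand for LOX (the most upstream of 3 starts), at chr15:73926212-73926461 on the plus strand for LOXL1 and at chr10:98268195-98268444 on the minus strand for LOXL4. The gene spans printed further below, from GENCODE, start upstream of these RefSeq starts. All of the LOXL1 window and part of the LOX and LOXL4 windows lie inside those spans. Capitals mark ACGTG, the core of the hypoxia response element, searched on both strands.
LOX: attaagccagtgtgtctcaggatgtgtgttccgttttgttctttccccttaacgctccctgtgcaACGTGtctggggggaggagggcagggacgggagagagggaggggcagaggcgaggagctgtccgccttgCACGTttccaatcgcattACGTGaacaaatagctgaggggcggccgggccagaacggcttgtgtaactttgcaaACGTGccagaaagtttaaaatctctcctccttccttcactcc
LOXL1: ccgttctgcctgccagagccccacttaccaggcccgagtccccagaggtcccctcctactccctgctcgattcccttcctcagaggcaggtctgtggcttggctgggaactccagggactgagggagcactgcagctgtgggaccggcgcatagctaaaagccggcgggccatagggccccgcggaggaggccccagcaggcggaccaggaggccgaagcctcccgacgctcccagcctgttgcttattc
LOXL4: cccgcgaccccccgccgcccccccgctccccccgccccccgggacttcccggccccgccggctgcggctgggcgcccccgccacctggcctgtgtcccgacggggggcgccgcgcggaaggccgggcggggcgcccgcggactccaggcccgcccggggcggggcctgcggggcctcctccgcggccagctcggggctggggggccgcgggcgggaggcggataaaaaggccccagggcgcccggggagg
The LOX window held 4 matches, which began 185, 116, 98 and 42 bases before the start, while the windows of LOXL1 and LOXL4 held none. Of 27305 promoters of the same length, 18.7% held at least 1 match and 0.714% held at least 4. Among the other members with a window, PLOD2 held 2 matches and P4HA1 held 1. The motif CATTCC, the core bound by TEAD factors, also searched on both strands, was in 11.9% of promoters and, among the 9 members searched, only in the LOXL3 window, with 2 matches. LOXL2 was not searched for either motif. These are matches of letters and no measurement of binding.

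Reads per library ran from 16358272 to 29838960 for A549, from 12704476 to 20332419 for H1299, from 15652553 to 30241598 for DMS454 and from 19682771 to 31770858 for H1694. HEPACAM2 averaged 6007 ± 124 normalized counts in A549 OE cells and 0.367 ± 0.635 in A549 control cells, and 25322 ± 1795 in H1299 OE cells and 2.88 ± 0.724 in H1299 control cells (SD, n = 3 each). It went against the titles in the small cell lines, with 11187 ± 314 normalized counts in the DMS454 libraries labelled CRISPR and 6550 ± 124 in those labelled control, and 10356 ± 214 in the H1694 libraries labelled CRISPR and 3557 ± 127 in those labelled control. Each direction given below for DMS454 and H1694 follows the titles and would turn round if the titles were exchanged. The libraries H1299 OE 1 and H1299 control 1 stood apart from their groups: the median absolute deviation from the group mean was 0.140 and 0.142 on the log2 scale, against 0.0905 to 0.0983 in the other H1299 libraries. The deviations of H1299 libraries from the line's mean also followed the GC content of the genes, with rank correlations across genes of -0.224, 0.417 and 0.425 in OE 1, 2 and 3 and of 0.291, -0.425 and -0.416 in control 1, 2 and 3. DMS454 CRISPR 3 had a deviation of 0.110, against 0.0543 to 0.0796 in the other DMS454 libraries. Neuroendocrine markers were high in both small cell lines, among them INSM1 in DMS454 (24099.5 normalized counts on average in labelled CRISPR, 25056.5 in labelled control) and NEUROD1 in H1694 (21074 and 21706).

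Some of the enzyme transcripts changed in every line, and no member was called in all 4. A gene counts as changed here where limma on log2(normalized count + 1), adjusted by Benjamini-Hochberg over all genes tested in that line, gave p under 0.05. In A549, 8 members reached the minimum of 10 normalized counts in a group, and 3 rose (LOXL2, PLOD2 and LOXL4) while 3 fell (PLOD1, P4HA1 and P4HA2). Of all 16707 genes tested in A549, 44.4% were called, 22.5% higher and 21.9% lower. In H1299 all 10 were tested and 5 rose (LOXL1, LOXL4, LOX, P4HA2 and PLOD1), against 28.8% of all genes called, 13.5% higher and 15.3% lower. None was called lower in H1299 by limma, edgeR, DESeq2 or limma-voom, and none was lower at an unadjusted p under 0.05. In DMS454 2 of 10 rose (PLOD3 and P4HA1), where 18.9% of all genes were called, 9.15% higher and 9.72% lower. None was called lower there by limma or DESeq2, while edgeR and limma-voom each called 1 (LOXL1), which was also the only 1 lower at an unadjusted p under 0.05 in limma. In H1694 9 were tested: LOXL1 rose and LOXL4, LOX and PLOD3 fell, where 17.6% of all genes were called, 8.73% higher and 8.9% lower. LOXL4 in H1299 and LOX and LOXL1 in DMS454 passed the minimum only through the group in which they were higher. The members with no test were LOX and LOXL1 in A549 and P4HA2 in H1694.

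**Figure D1:**
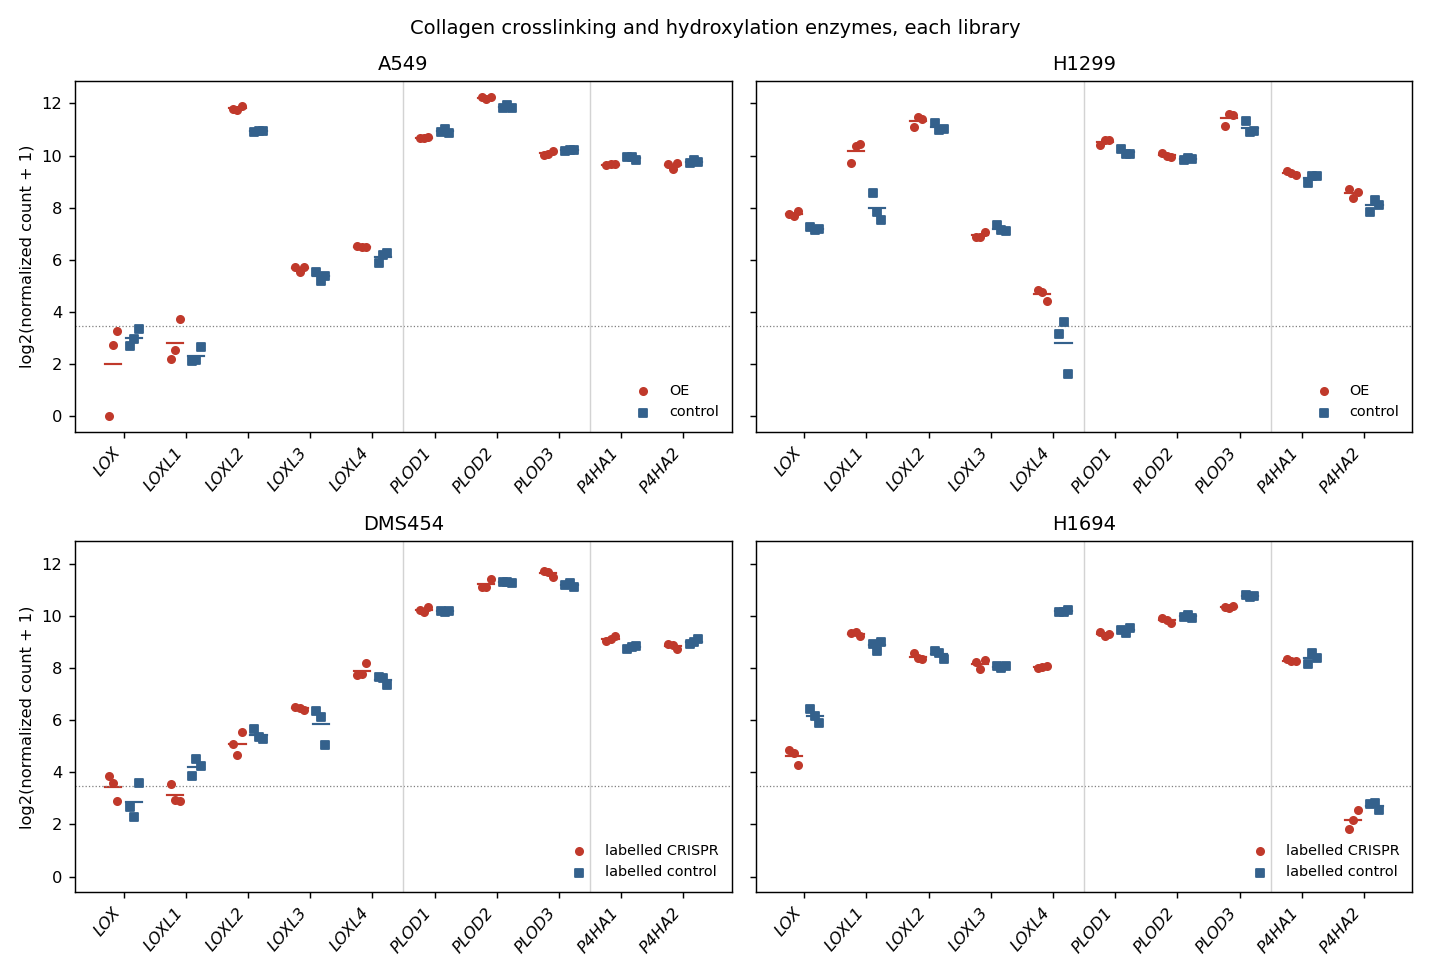
Values of the 10 enzyme genes in each library as log2(normalized count + 1), with OE or labelled CRISPR libraries as circles and control libraries as squares, horizontal bars at the group means and a dotted line at the minimum of 10 normalized counts. LOXL1 and LOXL4 in H1299, LOXL2 in A549 and LOXL4 and LOX in H1694 show clear gaps between the groups.

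LOXL4, a secreted lysyl oxidase with scavenger receptor domains (ENSG00000138131, GRCh38 chromosome 10, 98247690 to 98268250, minus strand), was lower in the H1694 libraries labelled CRISPR. It had 255, 261 and 267 normalized counts in the libraries labelled CRISPR, against 1144, 1129.9 and 1203 in those labelled control. No labelled CRISPR library came near a labelled control library, and the level in labelled control cells was 4.43-fold that in labelled CRISPR cells (log2 fold change -2.15, SE 0.06, limma adjusted p = 3.8e-12). The antisense transcript ENSG00000230928, which overlaps LOXL4 on the opposite strand, averaged 9.61 normalized counts in labelled CRISPR and 39.5 in labelled control libraries. Since the strand setting of the counting is not given in the sources used here, reads of the pair may not be fully told apart. In the same H1694 libraries, the neuroendocrine marker DLL3 was called higher in labelled CRISPR (0.51), and CHGB (-0.58) and NCAM1 (-0.26) were called lower. Fibroblast markers summed to 93.6 to 111 normalized counts in labelled CRISPR and 102 to 117 in labelled control libraries, with LUM and COL6A3 at 0, and endothelial markers to 3671 to 3806 and 3119 to 3190, nearly all of it CDH5 (3711 and 3127 on average, against 23.5 and 21.7 for PECAM1). The part of these markers in the H1694 results was not tested. In H1299 LOXL4 went the other way, with 27.7, 26.5 and 20.2 normalized counts in OE cells, against 7.85, 11.2 and 2.08 in control cells. The groups did not overlap, at low levels (log2 fold change 1.88, SE 0.50, limma adjusted p = 0.0213), and the call was lost without OE 2 (adjusted p = 0.0717) or OE 3 (0.0526). A549 cells had 92.3, 88.6 and 89.3 normalized counts with OE, against 57.2, 72.4 and 76.8 in control cells. That rise (0.39, SE 0.16, limma adjusted p = 0.0399) was not called by edgeR (0.0583), DESeq2 (0.142) or limma-voom (0.0611), nor by limma without any 1 of the OE libraries (0.0694 to 0.0908) or without control 1 (0.230). In DMS454, where LOXL4 had the highest level per length of the family, it had 211, 218 and 289 normalized counts in labelled CRISPR, against 201, 195 and 160 in labelled control libraries (0.36, SE 0.14, limma adjusted p = 0.0921).

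LOX, the founding lysyl oxidase (ENSG00000113083, GRCh38 chromosome 5, 122063195 to 122078360, minus strand), whose promoter window with 4 ACGTG matches is printed above, rose in H1299 and fell in H1694. In H1299 it had 213, 204 and 232 normalized counts in OE cells, against 151, 140.1 and 144 in control cells. Every OE library was above every control library, by 1.49-fold (log2 fold change 0.58, SE 0.12, limma adjusted p = 0.00663). In H1694 the values were 27.8, 25.5 and 18.3 in labelled CRISPR, against 84.1, 69.8 and 58.2 in labelled control libraries. The groups again stood clear of each other (-1.53, SE 0.23, limma adjusted p = 2.2e-04), with labelled control cells 2.89-fold higher. DMS454 held few LOX reads, at 13.3, 11.1 and 6.51 normalized counts in labelled CRISPR and 5.43, 3.86 and 11.1 in labelled control libraries, which overlapped. A549 held still fewer, at 4.73 ± 4.35 in OE and 7.22 ± 1.91 in control cells (SD, n = 3 each), below the minimum for a test.

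LOXL1, the lysyl oxidase best known for elastic fibre assembly (ENSG00000129038, GRCh38 chromosome 15, 73925989 to 73952137, plus strand), had the largest rise among the members. In H1299 it had 846, 1332 and 1388 normalized counts in OE cells, against 375, 230.0 and 185 in control cells. OE 1 was the lowest OE library and control 1 the highest control library, and the groups did not overlap. The level was 4.60-fold higher in OE cells (log2 fold change 2.20, SE 0.28, limma adjusted p = 0.00110), and without the pair of libraries numbered 1 the log2 fold change was 2.71 (SE 0.09). LOXL1 has the highest GC content of the members in its longest transcript, 67.6%, against a median of 48.1% for the genes tested in H1299, and removing each library's GC trend left a log2 fold change of 1.87 (SE 0.09). The antisense gene LOXL1-AS1 averaged 535 normalized counts in OE and 281 in control cells. In H1694 LOXL1 had 655, 673 and 589 normalized counts in labelled CRISPR, against 487, 402 and 509 in labelled control libraries. The lowest labelled CRISPR value lay above the highest labelled control value (0.46, SE 0.09, limma adjusted p = 0.00220), and LOXL1-AS1 averaged 540 and 445. In DMS454 its low values did not overlap either, at 10.8, 6.66 and 6.51 in labelled CRISPR and 13.6, 21.6 and 18.1 in labelled control libraries. That difference of -1.07 (SE 0.36) missed the threshold in limma (adjusted p = 0.0538) and passed it in edgeR (0.0419) and limma-voom (0.0403). In A549 LOXL1 stayed below the minimum for a test, with 3.55, 4.83 and 12.2 normalized counts in OE and 3.30, 3.45 and 5.30 in control cells.

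LOXL2, a lysyl oxidase with scavenger receptor domains that acts on basement membrane collagen, rose in A549. It had 3523, 3428 and 3798 normalized counts in OE cells, against 1915, 1943 and 1969 in control cells. The gap between the groups was many times the spread within them (1.84-fold, log2 fold change 0.88, SE 0.04, limma adjusted p = 5.5e-23). In the same A549 libraries the summed level of the fibroblast markers was 285 to 302 normalized counts in OE and 82.8 to 92.1 in control cells, with 5 of the 7 markers analysed, none of them at 0 in all libraries, and most of the sum from THY1 (253 and 66.6), while LUM was at 12.3 and 10.2. The summed level of epithelial markers was 129842 to 135738 in OE and 160486 to 169144 in control cells. Fewer cells of a type and less RNA per cell cannot be told apart in bulk RNA, and the part of these markers in the A549 results was not tested. In H1299 LOXL2 had 2176, 2832 and 2708 normalized counts in OE and 2427, 2013 and 2058 in control cells. Here OE 1 fell below control 1, and the difference of 0.24 (SE 0.12) missed the threshold (limma adjusted p = 0.147). Without the pair of libraries numbered 1 it was 0.44 and called (limma adjusted p = 4.8e-08), and with the GC trend removed it was 0.08 and not called (0.225). In the small cell lines the groups overlapped, at 34.1 ± 10.7 in labelled CRISPR and 41.9 ± 6.10 in labelled control libraries of DMS454, and 342 ± 29.2 and 367 ± 41.9 in those of H1694 (SD, n = 3 each).

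LOXL3, which is needed for palate and spine development in mice, was called in no line by limma, although its groups did not overlap in 3 of them. It had 52.1, 45.9 and 52.6 normalized counts in OE and 45.1, 35.7 and 41.1 in control cells of A549 (0.30, SE 0.20, limma adjusted p = 0.231). The H1299 values of 118, 116 and 134 in OE and 161, 141 and 136 in control cells gave -0.26 (SE 0.14, limma adjusted p = 0.191). The DMS454 values of 90.7, 87.7 and 83.1 in labelled CRISPR and 81.5, 68.6 and 32.0 in labelled control libraries gave 0.62 (SE 0.29, limma adjusted p = 0.178). Groups of libraries that do not overlap were common among all genes tested, at 51.8% in A549, 43.3% in H1299, 36.6% in DMS454 and 35% in H1694. With the GC trend removed, the fall of LOXL3 in H1299 was called (-0.38, limma adjusted p = 0.0250). H1694 had 286 ± 35.6 in labelled CRISPR and 263 ± 7.10 in labelled control libraries (SD, n = 3 each). The genes HTRA2 and DOK1 overlap LOXL3 on the opposite strand.

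The lines differed in which lysyl oxidase made up most of the family's transcripts. Levels of different genes are compared here per length, as TPM (transcript reads per length, scaled to 1 fixed total in each library), from the reads recovered from the tables and the merged exon length of each gene. Since the tables were normalized separately, levels of different lines are set side by side with no test. LOXL2 made up 94.2% ± 0.0211 of the lysyl oxidase TPM in A549 OE cells and 91.8% ± 0.601 in A549 control cells. In H1299 its share was 53.2% ± 2.35 in OE and 74.1% ± 2.68 in control cells, while that of LOXL1 was 38.0% ± 3.66 in OE and 13.8% ± 3.28 in control cells. The shares of a family are tied, so a change in 1 member moves those of the others. In TPM, LOXL2 averaged 90.4 in OE and 70.8 in control cells of H1299, and LOXL1 averaged 65.7 and 13.6. LOXL4 led in DMS454, at 68.3% ± 4.003 in labelled CRISPR and 65.2% ± 2.28 in labelled control libraries, with LOXL3 next at 21.2% ± 3.21 and 17.3% ± 5.29. In H1694 the leading enzyme differed between the groups: LOXL4 held 19.0% ± 1.004 in labelled CRISPR and 54.5% ± 1.49 in labelled control libraries, and LOXL1 held 46.6% ± 2.54 and 21.9% ± 1.88 (SD, n = 3 for each share). In TPM, LOXL4 averaged 10.5 in labelled CRISPR and 49.2 in labelled control libraries of H1694, and LOXL1 averaged 25.9 and 19.8. For these shares of LOXL2 in A549, LOXL1 and LOXL2 in H1299 and LOXL1 and LOXL4 in H1694 the groups did not overlap, and the two-sided exact permutation test gave p = 0.1, the smallest that 3 against 3 allows.

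**Figure D2:**
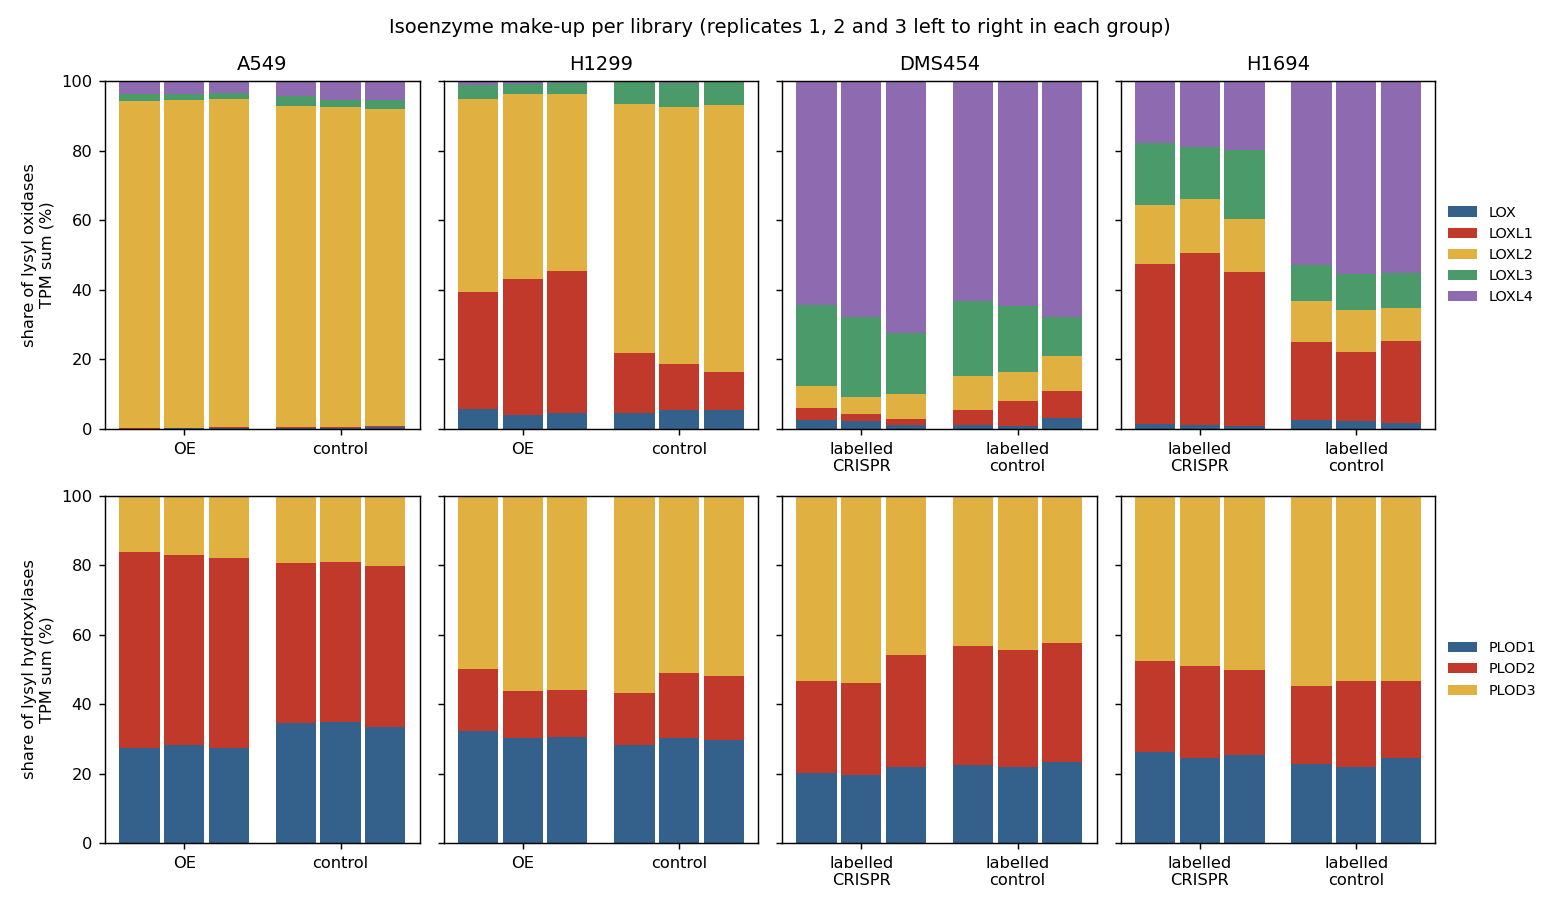
Share of each isoenzyme in the summed TPM of the 5 lysyl oxidases (upper row) and the 3 lysyl hydroxylases (lower row), in percent, with 1 stacked bar per library. LOXL1 takes 46.6% of the lysyl oxidase sum in the H1694 libraries labelled CRISPR, where LOXL4 takes 19.0%, and LOXL4 takes 54.5% in those labelled control.

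The summed level of the 5 lysyl oxidases also differed between groups. It was 108 ± 6.49 TPM in A549 OE and 58.1 ± 0.589 in A549 control cells, and 171 ± 33.6 in H1299 OE and 95.8 ± 15.4 in H1299 control cells. DMS454 had the lowest sums, at 15.2 ± 1.05 TPM in labelled CRISPR and 12.04 ± 1.80 in labelled control libraries. In H1694 the sum was lower in the labelled CRISPR libraries, at 55.5 ± 4.60 TPM, than in the labelled control libraries, at 90.3 ± 2.89 (SD, n = 3 each). In all 4 lines the groups did not overlap (two-sided exact permutation p = 0.1, the smallest possible). Within H1694, LOXL2 at 9.996 ± 1.38 TPM and LOXL3 at 9.33 ± 0.285 in labelled control libraries did not differ beyond their spread.

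Of the lysyl hydroxylases, PLOD3, which also carries glycosyltransferase activity (GRCh38 chromosome 7, 101205977 to 101218420, minus strand), rose in DMS454 and fell in H1694 by almost the same amount. It had 3331, 3308 and 2863 normalized counts in labelled CRISPR, against 2346, 2470.5 and 2222 in labelled control libraries of DMS454. Every labelled CRISPR library was above every labelled control library (log2 fold change 0.43, SE 0.06, limma adjusted p = 6.1e-04), and without CRISPR 3, the lowest of them, the log2 fold change was 0.50. In H1694 it had 1294, 1259.9 and 1309.6 normalized counts in labelled CRISPR, against 1782, 1692 and 1734 in labelled control libraries. The groups stood apart in the other direction (-0.43, SE 0.05, limma adjusted p = 1.0e-05). In H1299 the values were 2262, 3084 and 3010.1 in OE and 2589.7, 1907 and 1972 in control cells, which overlapped through the libraries numbered 1 (0.37, SE 0.15, limma adjusted p = 0.108). Without that pair the difference was 0.65 and called (limma adjusted p = 6.4e-11), and with the GC trend removed it was 0.13 and called (0.0386), for a gene of 61.7% GC. In A549 it had 1039, 1055 and 1167 normalized counts in OE and 1144, 1199 and 1187 in control cells (-0.12, SE 0.05, limma adjusted p = 0.0607), a difference that edgeR (0.0479) and limma-voom (0.0393) called. In the same DMS454 libraries, the neuroendocrine markers moved both ways: 3 were called higher in labelled CRISPR, CHGA (0.32), CHGB (0.27) and NEUROD1 (0.71), and 3 lower, GRP (-0.57), ENO2 (-0.87) and NCAM1 (-0.70). Fibroblast markers summed to 261 to 320.3 normalized counts in labelled CRISPR and 350.4 to 395 in labelled control libraries. Most of that sum came from FAP (201 and 294 on average), which was called lower (-0.54). PDGFRA was called higher (2.75), and it passed the minimum only through the group in which it was higher. COL6A3 was not called (-0.08), so the fibroblast markers moved both ways too. The part of these markers in the DMS454 results was not tested.

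PLOD2, the lysyl hydroxylase of collagen telopeptides and so of the crosslinks typical of scar tissue (GRCh38 chromosome 3, 146069440 to 146163653, minus strand), rose in A549. It had 4854, 4556 and 4818 normalized counts in OE cells, against 3628, 3911 and 3664 in control cells. The lowest OE library was above the highest control library (1.27-fold, log2 fold change 0.34, SE 0.04, limma adjusted p = 3.2e-10). In the other lines it missed the threshold, at 0.15 in H1299 (limma adjusted p = 0.171), -0.08 in DMS454 (0.497) and -0.15 in H1694 (0.0927). In DMS454 the labelled CRISPR libraries had 2208, 2173 and 2708 normalized counts, against 2510.4, 2534 and 2421 in labelled control libraries. CRISPR 3 alone was above the labelled control libraries, and without it PLOD2 was called lower (-0.18, limma adjusted p = 3.6e-04).

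PLOD1, which hydroxylates lysines within the triple helix (GRCh38 chromosome 1, 11934205 to 11975538, plus strand), fell in A549 and rose in H1299. It had 1635, 1639.9 and 1677 normalized counts in OE cells, against 1907, 2074 and 1853 in control cells of A549. All OE values lay below all control values (-0.23, SE 0.04, limma adjusted p = 2.5e-05). In H1299 it had 1372, 1554 and 1541 normalized counts in OE, against 1213, 1064 and 1062 in control cells, again without overlap (0.42, SE 0.09, limma adjusted p = 0.00803). With the GC trend removed, the rise in H1299 was 0.25 (limma adjusted p = 0.00303). It averaged 1204 ± 78.2 in labelled CRISPR and 1146 ± 2.14 in labelled control libraries of DMS454, and 628 ± 37.3 and 700.2 ± 46.9 in those of H1694 (SD, n = 3 each), with neither called.

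Per length, PLOD2 led the lysyl hydroxylases in A549, with 55.3% ± 0.988 of their TPM in OE and 46.0% ± 0.183 in control cells, and PLOD3 led in the other lines. The PLOD3 share was 54.0% ± 3.48 in OE and 53.2% ± 3.19 in control cells of H1299, 51.1% ± 4.53 in labelled CRISPR and 43.3% ± 0.988 in labelled control libraries of DMS454, and 49.0% ± 1.29 and 53.8% ± 0.747 in those of H1694 (SD, n = 3 each). The shares in A549, DMS454 and H1694 did not overlap between groups (two-sided exact permutation p = 0.1, the smallest possible), and those in H1299 did. In H1694, PLOD1 and PLOD2 were equal within their spread, at 17.4 ± 1.84 and 17.5 ± 1.86 TPM in labelled CRISPR and 20.4 ± 0.912 and 20.4 ± 1.34 TPM in labelled control libraries.

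P4HA1, the major alpha subunit of collagen prolyl 4-hydroxylase (GRCh38 chromosome 10, 73007217 to 73096974, minus strand), fell in A549 and rose in DMS454. In A549 it had 789, 812 and 811 normalized counts in OE cells, against 991, 995 and 918 in control cells. The groups were clearly apart (-0.27, SE 0.05, limma adjusted p = 6.0e-05). In DMS454 it had 517, 544 and 598 normalized counts in labelled CRISPR, against 426, 448 and 457 in labelled control libraries. These did not overlap (0.31, SE 0.08, limma adjusted p = 0.0138), and the call was lost without control 1 (adjusted p = 0.0641) or control 2 (0.0557). In H1299 (limma adjusted p = 0.167) and H1694 (0.638) it was not called, at 642 ± 30.3 in OE and 560.3 ± 59.2 in control cells, and at 311 ± 9.51 in labelled CRISPR and 330.1 ± 46.5 in labelled control libraries (SD, n = 3 each).

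P4HA2, the second alpha subunit (GRCh38 chromosome 5, 132191838 to 132295315, minus strand), fell slightly in A549 and rose in H1299, with both calls near the threshold. It had 811, 724 and 828 normalized counts in OE, against 845, 906 and 863 in control cells of A549 (-0.15, SE 0.06, limma adjusted p = 0.0326). That call was lost in DESeq2 (0.0828) and without OE 2 (0.282), control 2 (0.131) or control 3 (0.0518), where the difference without OE 2 was -0.09. The H1299 values were 421, 334 and 391.9 in OE, against 229, 316 and 278 in control cells (0.49, SE 0.14, limma adjusted p = 0.0330). The lowest OE library was only just above the highest control library, and the call was lost without OE 1 (0.0572), OE 3 (0.106), control 1 (0.0641) or control 3 (0.0851). Without the pair numbered 1 the log2 fold change was 0.29 (limma adjusted p = 0.0284). DMS454 averaged 456 ± 26.6 in labelled CRISPR and 512 ± 34.3 in labelled control libraries (SD, n = 3 each; limma adjusted p = 0.178). H1694 nearly lacked P4HA2, with 11 reads in all labelled CRISPR and 17 in all labelled control libraries, so P4HA1 made up 99.6% ± 0.149 of the alpha subunit TPM in labelled CRISPR and 99.4% ± 0.119 in labelled control libraries. The P4HA1 share was otherwise lower, between 70.5% ± 0.668 in labelled control libraries of DMS454 and 84.9% ± 1.08 in H1299 control cells (SD, n = 3 each). These shares depend on the merged exon lengths used, 8502 bases for P4HA2 and 3093 for P4HA1. Before division by length, P4HA2 had the higher mean in the DMS454 labelled control libraries (512 normalized counts, against 444 for P4HA1).

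**Figure D3:**
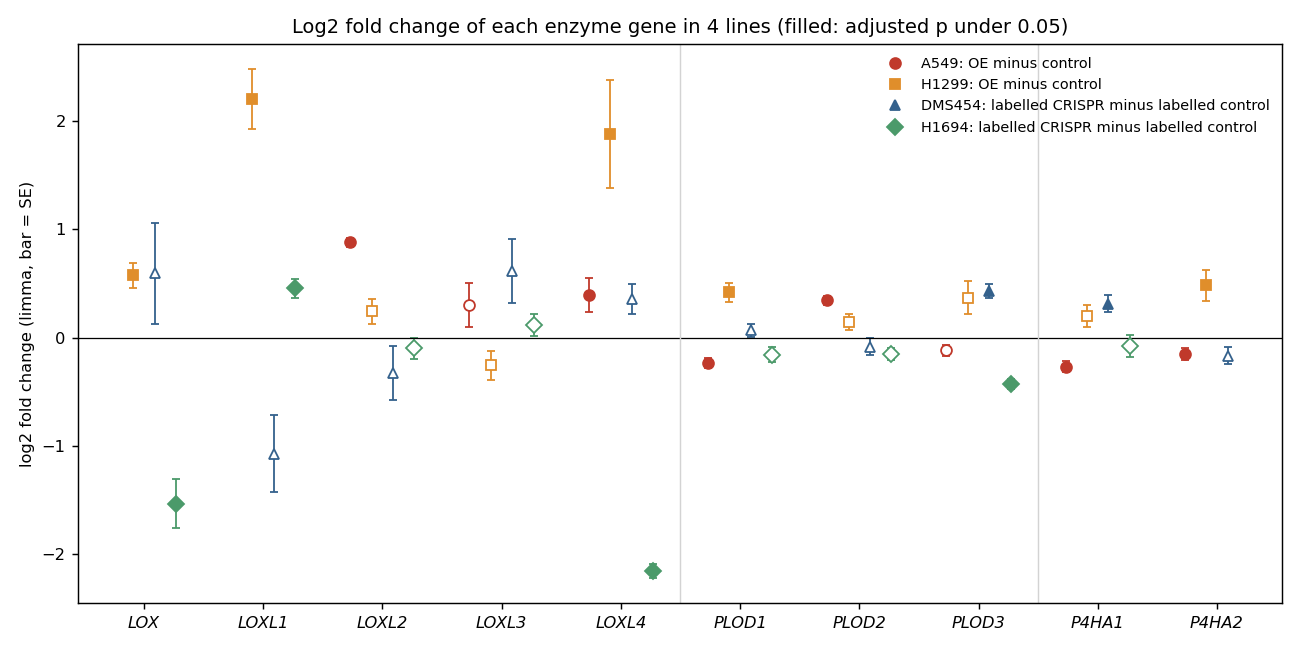
Log2 fold change of each enzyme gene in the 4 lines from limma, with bars for the standard error, filled symbols for an adjusted p under 0.05 and open symbols otherwise. LOXL1 (2.20) and LOXL4 (1.88) in H1299 are the highest points, and LOXL4 (-2.15) and LOX (-1.53) in H1694 the lowest.

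The same contrast gave different responses in the lines that share it, when the difference itself was tested across all genes with an interaction term in limma. Between the OE lines, 7 of the 8 members tested differed, where 41.2% of 14578 genes did. The A549 minus H1299 difference in log2 fold change was -1.49 for LOXL4, -0.66 for PLOD1, -0.63 for P4HA2, -0.49 for PLOD3 and -0.47 for P4HA1, and 0.64 for LOXL2 and 0.56 for LOXL3 (limma adjusted p from 1.3e-04 for PLOD1 to 0.0460 for PLOD3). PLOD2, at 0.20, was not called (limma adjusted p = 0.0569). Between the small cell lines, 5 of 9 members differed, where 20.2% of 15460 genes did. The DMS454 minus H1694 difference was 2.51 for LOXL4, 2.12 for LOX, 0.86 for PLOD3 and 0.39 for P4HA1, and -1.53 for LOXL1 (limma adjusted p from 2.7e-08 for LOXL4 to 0.0482 for P4HA1). LOX and LOXL1 in DMS454 and LOXL4 in H1299 entered these tests through 1 group only, so their differences are no support for the counts. A minimum mean of 50 leaves all 3 of these out. With it, 7 of 7 members differed between the OE lines and 3 of 6 between the small cell lines. Of these, LOXL3 averaged 50.2 normalized counts in OE and 40.6 in control cells of A549. LOXL3 thus passed that minimum in A549 only through the group in which it was higher. The share of all genes that differed at that minimum was not counted. The calls of LOXL3, LOXL4 and PLOD3 between the OE lines and of P4HA1 between the small cell lines were each lost under several alternatives. The OE and the CRISPR contrasts were set against each other in no test, and their values stand side by side above.

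Other genes of the collagen-modifying machinery moved in different directions from line to line. Of all genes tested, 44.4% were called in A549, 28.8% in H1299, 18.9% in DMS454 and 17.6% in H1694, as given above. In A549, 11 of the 14 tested enzymes and chaperones of collagen modification fell and 1 rose, with a median log2 fold change of -0.16 (between -0.0019 and 0.0018 for all genes, over the 4 lines). Among those that fell were P4HB, the protein disulfide isomerase that is the beta subunit of prolyl 4-hydroxylase (-0.38), the collagen chaperone SERPINH1 (-0.38) and CRTAP, a partner of prolyl 3-hydroxylase (-0.34). The exception was P4HA3, a further alpha subunit, at 318 normalized counts in OE and 145 in control cells (1.13, limma adjusted p = 4.2e-13). In H1299, 4 of 15 rose (median 0.26): P4HA3 (0.81), the hydroxylysine galactosyltransferase COLGALT2 (0.72), FKBP10, a prolyl isomerase that works with PLOD2 (0.61), and SERPINH1 (0.45). None was called lower there by limma, edgeR, DESeq2 or limma-voom, with 1 lower at an unadjusted p under 0.05. Without both libraries numbered 1, 11 rose and 2 fell, where 8919 of 16192 genes were called. With the GC trend removed 8 rose, where 6755 of 16014 genes were called. In DMS454, 3 of 14 rose and 1 fell (median 0.10), with FKBP14 at 0.38, SERPINH1 at 0.28 and PPIB at 0.14, and the prolyl 3-hydroxylase P3H2 at -1.81 (11.7 normalized counts in labelled CRISPR and 42.5 in labelled control libraries). Without CRISPR 3, 4 rose and 4 fell, where 6601 of 18868 genes were called. In H1694, 2 of 13 rose and 3 fell (median -0.09), with COLGALT2 at 0.64 and P3H4 at 0.28 against SERPINH1 at -0.44 and P3H1 at -0.30. SERPINH1 was thus called in all 4 lines, lower in A549 and H1694 and higher in H1299 and DMS454. PLOD3 had log2 fold changes of -0.12 and -0.43 in A549 and H1694 and of 0.37 and 0.43 in H1299 and DMS454, the values of A549 and H1299 not being called.

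Of the genes that process procollagen and activate lysyl oxidase, 5 of 7 tested rose in H1299, with a median of 0.95: fibronectin FN1 (1.52), the elastic fibre proteins FBLN5 (1.12) and EFEMP2 (1.03), BMP1, the protease that cleaves the propeptides of procollagen and of LOX (0.95), and PCOLCE, its enhancer (0.76). BMP1 averaged 494 normalized counts in OE and 257 in control cells of H1299 (limma adjusted p = 7.3e-04). It also rose in A549 (0.45), where FN1 fell (-0.41), and there 2 of 6 rose and 2 fell (median -0.06). Of all genes, 44.4% were called in A549, 28.8% in H1299, 18.9% in DMS454 and 17.6% in H1694. The 5 genes of H1299 stayed 5 in number by edgeR, DESeq2, limma-voom, without both libraries numbered 1 and with the GC trend removed. Without both libraries numbered 1, 4381 of all 16192 genes were called higher, and with the GC trend removed 3178 of 16014. None of the 7 was lower by any of these alternatives or at an unadjusted p under 0.05. In DMS454 (median 0.28) none of 7 was called in either direction by limma, edgeR or DESeq2. By limma-voom, without CRISPR 3 and at an unadjusted p under 0.05, 1 was lower. At the unadjusted p this was PCOLCE2, with 8.06 normalized counts in labelled CRISPR and 20.6 in labelled control libraries. PCOLCE2 passed the minimum only through the group in which it was higher. In H1694 (median -0.09), 2 of 11 rose, BMP1 (0.30) and the procollagen N-propeptidase ADAMTS2 (0.30), and TLL1, a protease related to BMP1, fell (-1.49), with 39.1 normalized counts in labelled CRISPR and 111 in labelled control libraries.

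Of the substrates of the enzymes, the fibrillar collagen genes COL1A1 and COL5A1 rose in A549. COL1A1, the main chain of type I collagen, averaged 2102 normalized counts in OE and 257 in control cells (log2 fold change 3.03, limma adjusted p = 7.3e-39), and COL5A1 averaged 3791 and 579 (2.71). Among all genes tested, 44.4% were called in A549, 28.8% in H1299, 18.9% in DMS454 and 17.6% in H1694. Of the substrates, 3 of 9 tested rose and 3 fell in A549 (median -0.02), COL5A2 (-0.25) among those that fell. Another of them, COL24A1, had 2.96 normalized counts in OE and 10.5 in control cells, so it passed the minimum only through the group in which it was higher. Thus COL1A1 and COL5A1 rose in the same A549 libraries in which LOXL2 and PLOD2 rose and P4HA1, P4HB and SERPINH1 fell. In H1299 (median 0.23), 2 of 5 rose, COL27A1 (0.54) and COL11A1 (1.58, at 41.6 normalized counts in OE and 13.6 in control cells). In DMS454 (median -0.09) 1 of 6 fell, COL24A1 (-0.58), and 2 fell without CRISPR 3, where 3445 of 18868 genes were called lower. In H1694 (median 0.17) 3 of 8 rose, COL27A1 (1.204), COL1A1 (0.70) and COL5A1 (0.39), and COL1A2 fell (-0.34).

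Copper is the metal of the lysyl oxidases and ascorbate keeps the iron of the hydroxylases reduced. Of 7 genes for their supply tested in A549, 1 rose and 3 fell, with the vitamin C transporters SLC23A1 (-1.54) and SLC23A2 (-0.56) and the copper pump ATP7A (-0.32) lower and the copper chaperone ATOX1 (0.31) higher. ATP7A, which loads copper onto lysyl oxidases in the secretory pathway, rose in H1299 (0.68) and DMS454 (0.30), while ATP7B fell in H1299 (-0.75). Counts were 2 of 6 higher and 1 lower in H1299 and 2 of 6 higher in DMS454. For these genes and the hypoxia genes below, the shares of all genes called were 44.4% in A549, 28.8% in H1299, 18.9% in DMS454 and 17.6% in H1694. None of the 6 supply genes tested in H1694 was called in either direction by limma, edgeR, DESeq2 or limma-voom, nor at an unadjusted p under 0.05. The medians of the supply genes were -0.01 in A549, 0.18 in H1299, 0.13 in DMS454 and -0.09 in H1694. Hypoxia response genes were mixed in every line: 6 of 15 rose and 4 fell in A549, 2 of 12 rose and 3 fell in H1299, 1 of 15 rose and 2 fell in DMS454, and 4 of 15 rose and 2 fell in H1694, with medians between -0.09 in H1299 and 0.13 in H1694. In H1299, where LOX was higher, the hypoxia targets PFKFB4 (0.80) and VEGFA (0.68) were higher too, and ADM (-1.89), PFKFB3 (-0.32) and BNIP3 (-0.32) were lower. In H1694, where LOX was lower, ADM (-1.203) and EGLN3 (-0.97) were lower and NDRG1 (0.50), MXI1 (0.26), PDK1 (0.24) and SLC2A1 (0.22) were higher.

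**Figure D4:**
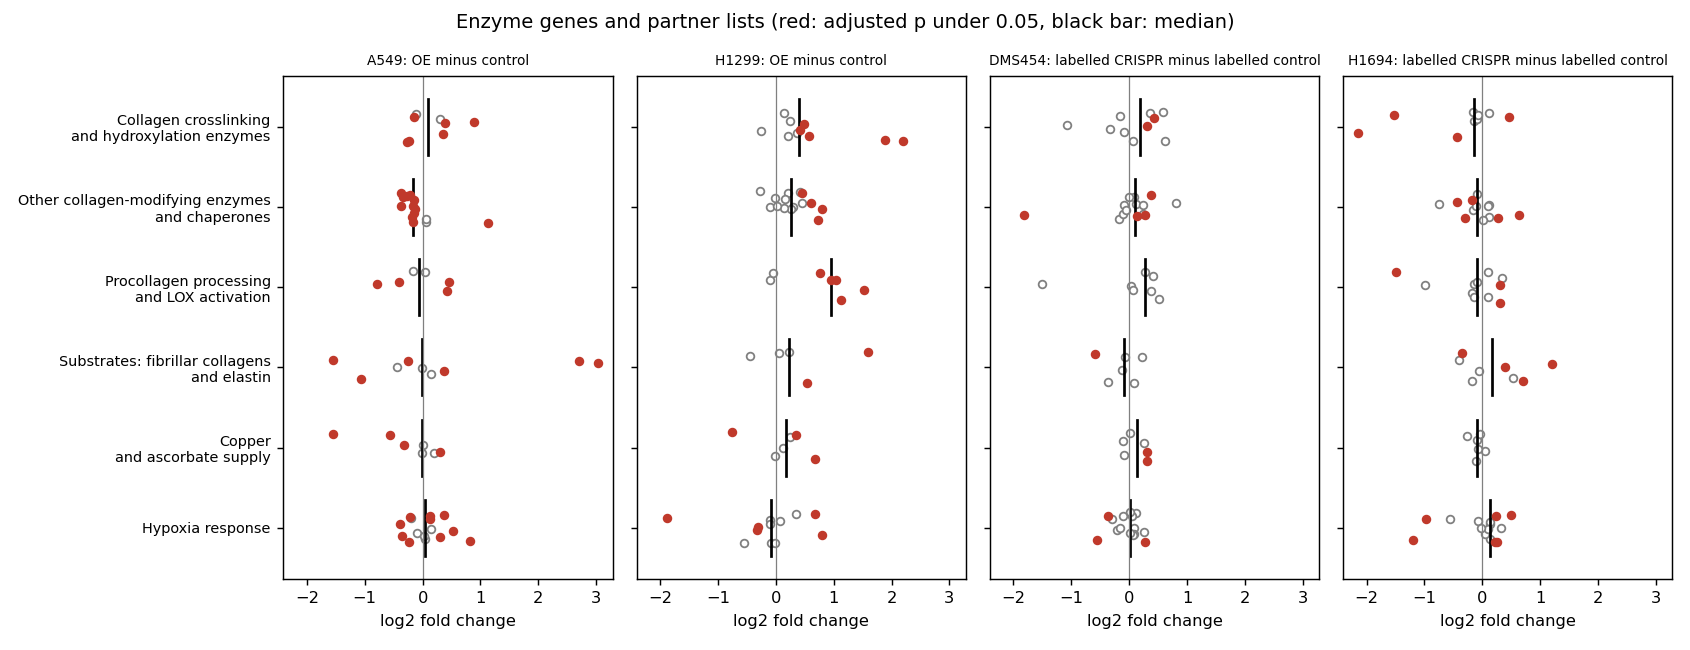
Log2 fold changes of the 10 enzyme genes and of 5 lists of partner genes in each line, 1 point per tested gene, filled red where the adjusted p was under 0.05, with a black bar at the median of each list. The list of procollagen processing and lysyl oxidase activation in H1299 has the highest median (0.95), and the other collagen-modifying enzymes in A549 lie mostly left of 0, with P4HA3 (1.13) the only called gene to the right.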

How the data were processed

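RNA was measured by strand-specific sequencing in 24 libraries, grouped by their titles. Per the submitters' processing notes, the authors used CASAVA, FastQC, Trim Galore, STAR, DESeq2 and the build hg38. The sources used here do not give versions, the counter or the annotation. Per the file headers and values, the deposited signal per library and the deposited baseMean are normalized counts (reads divided by the authors' size factors). The deposited fold changes and standard errors are log2 values, the deposited Wald statistic is a score, and the deposited p-values are raw and adjusted. For DMS454 and H1694 the authors put the libraries titled control on top, so the sign of their fold change is opposite to the one used here.

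Whole reads were recovered for 100.0% of values within 0.01. In each line, limma 3.58.1 (trend and robust, R 4.3.3) was fitted on log2(value + 1) to genes whose mean reached 10 in some group, and p-values were adjusted by Benjamini-Hochberg (threshold 0.05). A single model of each pair of lines gave the interaction. A fold change on this scale understates that of low genes. Alternatives on the recovered reads were DESeq2 1.42.0, limma-voom and edgeR 4.0.16, beside TMM scaling, other filters, a pseudocount of 5, a replicate block and leaving out libraries. The GC correction and the alternatives for partner lists were added after the data were seen. TPM used merged exon lengths of GENCODE (GRCh38). The fits by limma (with and without the block), edgeR, DESeq2 and limma-voom and the interaction were tested on simulated counts. The other steps were not. IDs were matched to symbols for 21299 of 21306 genes in A549, 20700 of 20707 in H1299 and 60649 of 60668 in DMS454 and in H1694.

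The members and lists were chosen with earlier results of these data known. All members are named, and of each partner list, per line, up to 4 called genes of the largest change with a mean of at least 50 in 1 group. COL24A1 in A549, PCOLCE, COL11A1 and BNIP3 in H1299, P3H2 and PCOLCE2 in DMS454 and PDK1 and SLC2A1 in H1694 were named outside that rule, after their values were seen. So were the neuroendocrine markers, and the fibroblast markers FAP, COL6A3 and PDGFRA in DMS454. P-values measure the spread between the 3 cultures of a group. Promoter sequences are from RefSeq and a window was used for 9 members. The summed level of neuroendocrine markers is not reported here.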

Additional observations from a re-analysis of the deposited data

Results flagged for a closer look

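The response of 12 member and contrast pairs differed between lines that share a contrast, by the interaction term in limma. Of all genes tested, 41.2% differed between the OE lines and 20.2% between the small cell lines. LOXL4 in H1299 and LOX and LOXL1 in DMS454 passed the minimum only through the group in which they were higher. Their differences are therefore no support for the count. Between the OE lines, the A549 minus H1299 difference in log2 fold change was 0.64 for LOXL2, -0.66 for PLOD1, -0.47 for P4HA1, -0.63 for P4HA2, -0.49 for PLOD3, -1.49 for LOXL4 and 0.56 for LOXL3. PLOD1, P4HA1 and P4HA2 had opposite signs in the 2 lines, each lower with OE in A549 and higher with OE in H1299, although the H1299 value of P4HA1 was not called on its own. Between the small cell lines, the DMS454 minus H1694 difference was 0.86 for PLOD3, 0.39 for P4HA1, 2.51 for LOXL4, 2.12 for LOX and -1.53 for LOXL1. PLOD3 was called in both small cell lines, higher in the labelled CRISPR libraries of DMS454 and lower in those of H1694.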

How the results depend on the processing

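Over all alternatives, 521 of 561 values of members within lines and 244 of 293 differences between lines kept their direction and their side of the threshold. A sign turned in 2: leaving out 1 library moved P4HA1 in H1694 between -0.18 (without labelled control 1) and 0.020 (without labelled control 2), and the PLOD2 difference between the small cell lines between -0.034 (without DMS454 CRISPR 3) and 0.13 (without DMS454 CRISPR 2). Same-numbered libraries did not deviate from their groups in the same direction, with correlations from -0.54 to 0.12 and 1 of 12 above 0.1. In H1299 the correlations were -0.54, -0.18 and -0.31 for the libraries numbered 1, 2 and 3. Same-numbered libraries there thus tended to deviate in opposite directions. With the replicate number as a block, 2 members (LOXL1 and LOXL4) and 1634 genes were called in H1299, against 5 and 4665 without it, and the block moved no other count of calls by over 1.5 times. Without both H1299 libraries numbered 1, 7 members and 8919 genes were called, and with the GC trend removed 9 members and 6755 of 16014 genes. Leaving out 1 library at a time called 4 to 6 members for A549, 3 to 6 for H1299 (3 without OE 3), 1 to 3 for DMS454 (1 without labelled control 1 or 2) and 4 to 6 for H1694, and 4 to 7 members that differed between the OE lines and 4 to 6 between the small cell lines. Over all genes it called 6439 to 6977 genes for A549, 2674 to 5426 for H1299, 1962 to 6601 for DMS454 (6601 without CRISPR 3) and 1834 to 4513 for H1694, against 7417, 4665, 3560 and 3134 with all libraries. With a filter at a mean of 50, 3 of the 6 members tested differed between the small cell lines, against 5 of 9 with the minimum of 10. Causes of these moves were not tested, beyond fewer libraries or fewer genes. Depth limits LOX and LOXL1 in A549 and DMS454, LOXL4 in H1299 and P4HA2 in H1694, which rest on few reads.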

Other observations

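The genes whose 4 log2 fold changes lay nearest to those of a member, by the mean absolute difference over the 4 lines, were searched among 9714 genes tested in all lines whose mean reached 50 normalized counts in a group of each. KREMEN1 lay nearest to PLOD1, at 0.016, HERC2 to PLOD2, at 0.021, YIPF4 to P4HA1, at 0.023, and TTC7B to LOXL3, at 0.066. ERAP1 lay nearest to PLOD3, at 0.070, with -0.03 in A549, 0.26 in H1299, 0.40 in DMS454 and -0.37 in H1694. MPP1 lay nearest to LOXL2, at 0.073. The gene nearest to LOXL4, DHRS3, differed from it by 0.52 on average, with 2.03 in H1299 and -0.84 in H1694. This measure sets any gene with large fold changes far from most others. LOXL4 itself, at 24.8 normalized counts in OE and 7.06 in control cells of H1299, was below the minimum set for the candidates. Each is a description over 4 values.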
